A study of Mus musculus with 11 samples.

Results

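The miR-297, miR-466, miR-467 and miR-669 families were examined in small RNA libraries of mouse spermatogonial progenitor cells (SPCs), the germ cells of the testis that maintain sperm production. The members were all mature miRNAs whose name starts with one of the 4 family numbers followed by a letter or a hyphen, with either arm of the hairpin included. This rule used no measured value and found 73 of the 1096 mature miRNAs, namely 6 of miR-297, 30 of miR-466, 10 of miR-467 and 27 of miR-669. Of the 73, 33 were named as 5p arms, 34 as 3p arms and 6 carried no arm in their name.

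The control SPCs carried the lentiviral vector shVector, and the Mov10 knockdown SPCs carried a lentiviral short hairpin RNA against Mov10, an RNA helicase. The methods name shMov10-832 for the RNA sequencing libraries, and the labels of the small RNA libraries name no construct. Both groups were testis cells labelled with the strain C57BL/6 and postnatal day 6. According to the methods, the cells were sorted for Thy1 from pups of a Rosa26 reporter stock on a mixed B6 and 129S background and grown on inactivated STO fibroblast feeders, so feeder RNA could be present in both groups. Each group had 1 small RNA library, so no value has a replicate error, and no difference was tested against the variation between cultures. The control library held 9628835 reads on miRNAs and the knockdown library 2794593. Levels are given as TPM, which here means reads per 1000000 reads of a library's own total, without correction for length. Each read contributed 0.0951 TPM to a control level and 0.313 TPM to a knockdown level. A floor of 3 reads, chosen here rather than measured, was 0.285 and 0.939 TPM. A loss shared by all RNAs of a library does not show on this scale.

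A miRNA is cut from a hairpin in a longer transcript, and each strand of the hairpin stem can give a mature miRNA, named 5p or 3p. The seed, bases 2 to 8 of the mature miRNA, does most of the pairing with target mRNAs. Most hairpins of these families form a tandem array in an intron of Sfmbt2, a Polycomb group gene that is imprinted and expressed from the paternal allele in the early embryo and the placenta. The array is a rodent feature with many near-identical copies, and its hairpins pair stretches rich in U and G with stretches rich in C and A.

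RefSeq sequences on GRCm38.p6 were matched by name to 4 of the 73 members. They are shown as examples of seeds and repeats from miR-466 and miR-669, and do not stand for the families as a whole. No member of miR-297 or miR-467 was matched. The seed is in capitals, and every sequence runs 5′ to 3′.
miR-466i-3p: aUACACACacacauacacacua
miR-466j: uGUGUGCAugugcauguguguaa
miR-466k: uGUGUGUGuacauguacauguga
miR-669n: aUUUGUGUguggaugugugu

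These 4 members all lie outside Sfmbt2, on the plus strand, at chr13:17747552-17747573 for miR-466i-3p, chr10:60960802-60960824 for miR-466j, chr3:85467396-85467418 for miR-466k and chr3:115979905-115979924 for miR-669n. Their lengths ran from 20 to 23 nt. None of the 4 seeds was found in another miRNA that had a sequence, a search that left out the members without one. The letters UGUGUG were in miR-466j, miR-466k and miR-669n, and in 16 of the 908 miRNAs with a sequence (1.76%). The letters ACACAC were in miR-466i-3p, and in 5 of the 908 (0.551%). Both motifs were searched in the mature RNA as written. Because most members had no matched sequence, seeds and motifs that they share are missing from these counts. Only 2 of the 4 members had levels above 1.5 TPM. miR-466i-3p had 172 control reads (16.4 TPM) against 14 knockdown reads (4.38 TPM), a log2 fold change of -1.88. miR-466k had 29 and 3 reads (2.76 and 0.939 TPM), a log2 fold change of -1.46. Both values were lower in the knockdown library, that of miR-466i-3p alone beyond counting error. In contrast, miR-466j (2 and 0 reads) and miR-669n (3 and 0 reads) were at or below the chosen floor of 3 reads. Among the other miRNAs with UGUGUG, 8 were above 1.5 TPM, and 4 of these were reduced over 1.5-fold and 3 raised. The 2 others with ACACAC above 1.5 TPM held 1 that was raised and none that was reduced.

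The members as a whole were lower in Mov10 knockdown than in control SPCs. Their reads summed to 24754 for control SPCs and 3112 for knockdown SPCs, which is 2353 and 974 TPM. The log2 ratio of these sums was -1.27 (95% counting interval -1.33 to -1.22), or 2.42-fold lower. As a share of all miRNA reads, the members fell from 0.257% (95% Wilson interval 0.254 to 0.260%) to 0.111% (0.108 to 0.115%). Intervals and tests on reads cover counting error only, and compare the 2 libraries rather than the 2 conditions.

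Most single members moved in the same direction. Of the 73 members, 54 were above 1.5 TPM in at least 1 library, and 47 of these were reduced over 1.5-fold in the knockdown, 1 was raised and 6 changed less. The background over all miRNAs above 1.5 TPM was 41.5% reduced and 15.8% raised. The paper's own count at these cutoffs leaned further towards reduced miRNAs, and the reason was not tested. Among the other miRNAs that exceeded the control level of the highest member (292 TPM) in neither library, 39.9% were reduced. As this limit also used the knockdown level, it could leave out raised miRNAs. The median log2 fold change, taken as log2 of TPM + 0.1 in the knockdown over TPM + 0.1 in the control, was -1.18 in the members (quartiles -1.77 and -0.84), against -0.37 in all 607 miRNAs above 1.5 TPM and -0.23 in those that are not members. Of the 54 members, 52 were below 0, which is 96.3% against 64.4% of all miRNAs. The pseudocount of 0.1 TPM understates the change of miRNAs with few reads.

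**Figure D1:**
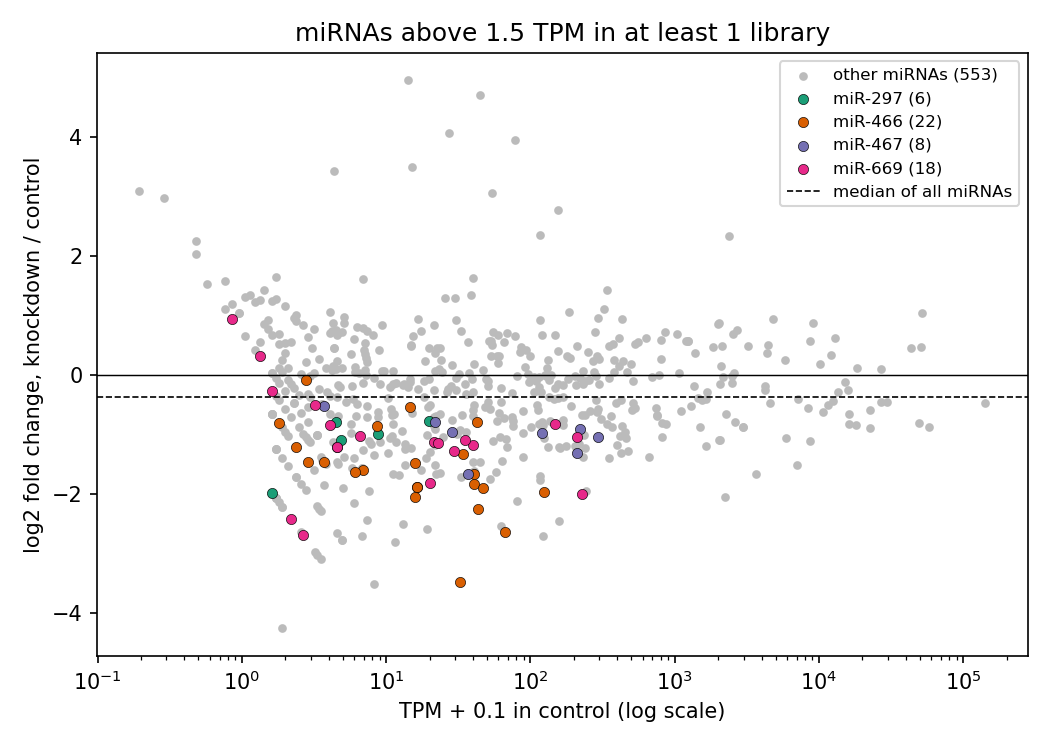
Log2 fold change of Mov10 knockdown over control plotted against TPM + 0.1 in the control (log scale) for the 607 miRNAs above 1.5 TPM in at least 1 library, with the members coloured by family and the other 553 miRNAs in grey. The members lie mostly below the dashed line, the median of all miRNAs at -0.37, and 52 of 54 lie below 0.

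The exact conditional binomial test, which compares the reads of a miRNA between the libraries given their totals, found 34 of the 73 members lower in the knockdown at an adjusted p below 0.05 and none higher. The background over all 1096 miRNAs was 21.4% lower and 10.7% higher. All 34 were also among the 47 reduced over 1.5-fold. The other 13 reduced members had 16 to 90 control reads and were not separated from counting error. The threshold of 1.5 TPM was passed by 44 members in both libraries, by 8 in the control alone and by 2 in the knockdown alone. Members passing through 1 library alone had to differ for that reason. Of the 44 members above it in both, 40 were reduced over 1.5-fold and none was raised. The share over all miRNAs above it in both was not computed, so this count has no background beside it. The remaining 19 members were below 1.5 TPM in both libraries. The 14 members without a read in the knockdown, all among these 19, had only 1 to 13 reads in the control. Over all 1096 miRNAs, 263 had no read in the knockdown.

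The reads were unevenly spread over the members. The 5 members with most reads held 49.3% of all member reads of the control library and 51.7% of those of the knockdown library, and the 20 members with most reads held 86.7% and 85.7%. All 20 were reduced over 1.5-fold and lower by the exact binomial test. With TMM factors miR-466c-5p changed less than 1.5-fold (-0.56), and with median ratios miR-466c-5p (-0.53) and miR-669c-5p (-0.57) did. Of all members, 42 and 41 were then reduced, against 47 as deposited, so members outside the 20 also lost the call. Among them was miR-297a-5p (-0.56 with TMM factors and -0.52 with median ratios). The other 53 members, with 3302 and 445 reads, had a log2 ratio of sums of -1.17 (-1.32 to -1.03), so the lower level was also found outside the abundant members.

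**Figure D2:**
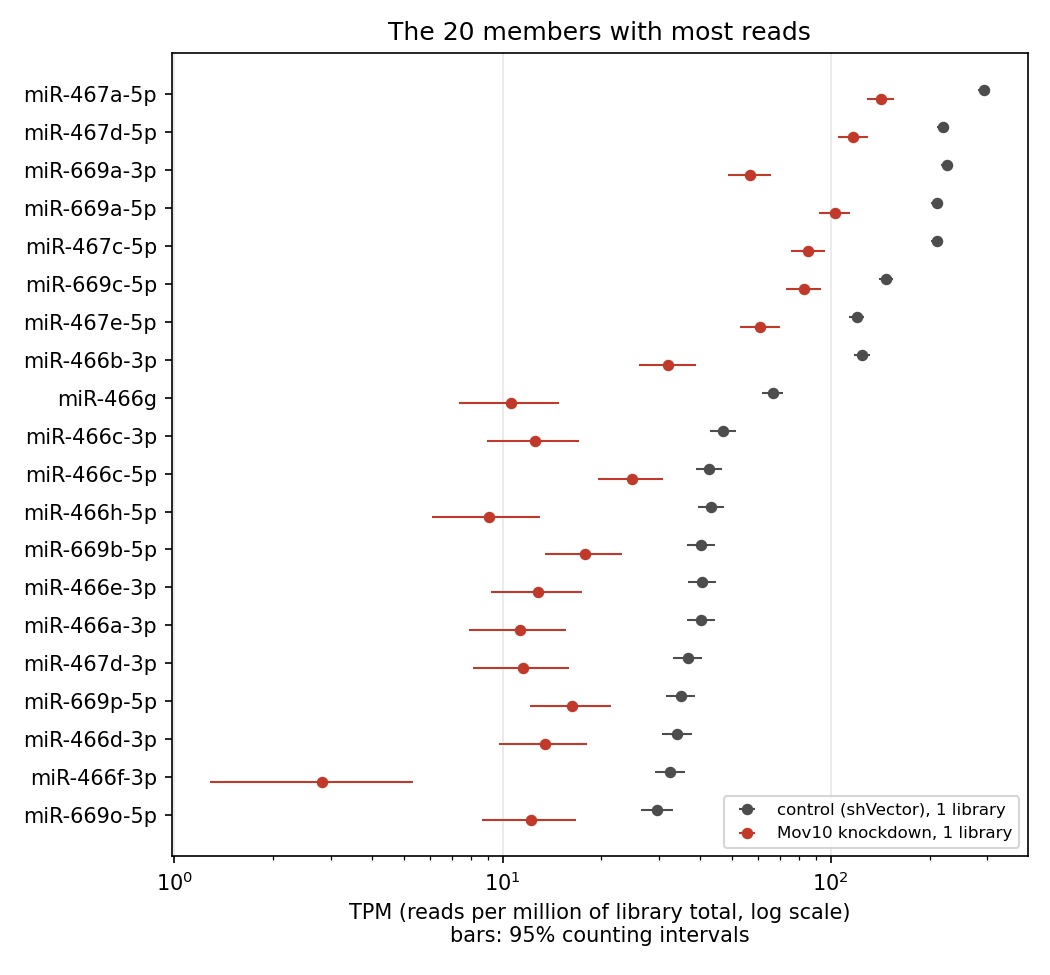
TPM (log scale) of the 20 members with most reads in the control library (grey) and the Mov10 knockdown library (red), with 95% counting intervals as bars. In each of the 20 members the knockdown value lies below the control value and the intervals do not overlap, and the widest gap is that of miR-466f-3p at 32.4 and 2.82 TPM.

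miR-467 was the family with most reads, and these lay mostly on the 5p arm. The miR-467 members had 9830 control reads against 1429 knockdown reads, a log2 ratio of sums of -1.06 (-1.14 to -0.98). Of its 10 members, 8 were above 1.5 TPM, 7 of these were reduced over 1.5-fold, and the median log2 fold change was -0.96. The most abundant member of all, miR-467a-5p, is listed with 10 hairpins. It had 3072 control reads (292 TPM) against 453 knockdown reads (142 TPM), a log2 fold change of -1.04 (95% interval -1.19 to -0.90, adjusted p = 4.23e-54, exact binomial test). Its partner miR-467a-3p had 300 and 47 reads (28.5 and 14.7 TPM) and a log2 fold change of -0.95. The 2 arms of mir-467a thus had similar changes.

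The other abundant miR-467 members come from 1 hairpin each. miR-467d-5p had 2314 and 374 reads (220 and 117 TPM), with a log2 fold change of -0.91. miR-467c-5p had 2220 and 273 reads (211 and 85.5 TPM), a change of -1.30. miR-467e-5p had 1261 and 195 reads (120 and 61.0 TPM), a change of -0.97. All were lower in the knockdown by the exact binomial test, with adjusted p of 4.11e-33, 3.15e-55 and 2.33e-20. The intervals of miR-467d-5p (-1.07 to -0.75) and miR-467c-5p (-1.49 to -1.12) did not overlap, so the decrease varied within the family beyond counting error. Of the 3p arms, miR-467d-3p had 385 and 37 reads (36.6 and 11.6 TPM), a change of -1.65. miR-467e-3p (38 and 8 reads, -0.51) and miR-467c-3p (10 and 2 reads, -0.53) did not pass the exact binomial test, and only the first was above 1.5 TPM.

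miR-669 was the family with most reads after miR-467. It had 8251 control reads against 1056 knockdown reads, a log2 ratio of sums of -1.25 (-1.34 to -1.15). Of its 27 members, 18 were above 1.5 TPM, of which 14 were reduced and 1 raised, and the median log2 fold change was -1.11. The 2 arms of miR-669a held most of these reads and are listed with 12 hairpins for 5p and 11 for 3p. miR-669a-3p had 2380 control reads (226 TPM) against 181 knockdown reads (56.7 TPM), a log2 fold change of -2.00 (-2.22 to -1.78, adjusted p = 3.02e-105, exact binomial test). miR-669a-5p had 2216 and 328 reads (211 and 103 TPM), a change of -1.04 (-1.21 to -0.87). Hence miR-669a-3p, slightly above miR-669a-5p in the control, was well below it in the knockdown.

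Other members of miR-669 were also lower. miR-669c-5p had 1547 and 265 reads (147 and 83.0 TPM), a log2 fold change of -0.83, and its 3p arm had 2 and 0 reads. miR-669b-5p had 423 and 57 reads (40.2 and 17.8 TPM), a change of -1.17. Its 3p arm, with 13 and 5 reads, was 1 of the 2 members above 1.5 TPM that were not lower in the knockdown (0.32, adjusted p = 0.909, exact binomial test). miR-669o-5p had 311 and 39 reads (29.6 and 12.2 TPM, -1.27) and miR-669o-3p 211 and 18 reads (20.1 and 5.63 TPM, -1.81). miR-669p-5p, listed with 2 hairpins, had 367 and 52 reads (34.9 and 16.3 TPM, -1.10), whereas its 3p arm had 12 and 0 reads. The only member raised over 1.5-fold was miR-669g, singled out here after its values were seen. It had 8 control reads against 5 knockdown reads (0.761 and 1.57 TPM), a log2 fold change of 0.95 that was not separated from counting error (adjusted p = 0.444, exact binomial test). Both miR-669b-3p and miR-669g passed 1.5 TPM through the knockdown library alone, so neither could enter with a lower knockdown level.

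miR-466 had the largest decrease of the 4 families. It had 6213 control reads against 554 knockdown reads, a log2 ratio of sums of -1.77 (-1.90 to -1.65). Of its 30 members, 22 were above 1.5 TPM and 20 of these were reduced, with a median log2 fold change of -1.61. The interval of its sum did not overlap with those of miR-467, miR-669 or miR-297. Reads lay mostly on the 3p arm, with 3949 control reads on 3p and 1461 on 5p, the reverse of miR-467 and miR-669. All 10 of its 3p members above 1.5 TPM were reduced and lower by the exact binomial test, and they changed by -3.48 to -1.33 on the log2 scale.

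The most abundant, miR-466b-3p, is listed with 8 hairpins. It had 1309 control reads (124 TPM) against 102 knockdown reads (31.9 TPM), a log2 fold change of -1.96 (-2.27 to -1.67, adjusted p = 5.02e-57, exact binomial test). miR-466b-5p, from the same hairpins, had 153 and 32 reads (14.5 and 10.0 TPM), a change of -0.53 that was not separated from counting error (-1.14 to 0.02, adjusted p = 0.154, exact binomial test). miR-466c had 495 and 40 reads on 3p (47.1 and 12.5 TPM, -1.90) and 448 and 79 reads on 5p (42.6 and 24.7 TPM, -0.78). In both pairs the 3p arm lost more. miR-466a-3p (424 and 36 reads, 40.3 and 11.3 TPM), miR-466e-3p (427 and 41 reads, 40.6 and 12.8 TPM) and miR-466d-3p (357 and 43 reads, 33.9 and 13.5 TPM) changed by -1.83, -1.65 and -1.33. Their 5p arms were scarce, with 24 and 3 reads for miR-466a-5p, 7 and 1 for miR-466e-5p and 90 and 15 for miR-466d-5p, and none of these 5p arms passed the exact binomial test.

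The largest decreases of abundant members also lay in miR-466. miR-466f-3p, listed with 3 hairpins, had 341 control reads (32.4 TPM) against 9 knockdown reads (2.82 TPM), a log2 fold change of -3.48 (-4.67 to -2.58, adjusted p = 3.14e-27, exact binomial test). miR-466g had 700 and 34 reads (66.6 and 10.6 TPM), a change of -2.63 (-3.19 to -2.15). miR-466h-5p had 455 and 29 reads (43.3 and 9.08 TPM), a change of -2.24 (-2.85 to -1.71), and its 3p arm had 63 and 6 reads (5.99 and 1.88 TPM, -1.62). Unlike in the miR-466 hairpins above, 5p was here both the major arm and the one that lost more, although the shares of its arms did not differ between the libraries beyond counting error. miR-466f-5p had 13 and 0 reads, and miR-466f, a member without an arm in its name, had 72 and 7 reads (-1.60).

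miR-297 was the smallest and scarcest family. Its 6 members had 460 control reads against 73 knockdown reads, a log2 ratio of sums of -0.94 (-1.31 to -0.58). All 6 were above 1.5 TPM and reduced over 1.5-fold, with a median log2 fold change of -1.03, but only 2 were lower by the exact binomial test. Above 1.5 TPM in both libraries were 5 of them, which changed by -1.21 to -0.77 on the log2 scale. The remaining member passed through the control library alone, so it had to be lower in the knockdown. miR-297a-5p had 209 and 37 reads (19.9 and 11.6 TPM), a change of -0.77 (exact binomial test, adjusted p = 0.00706). miR-297a-3p had 92 and 14 reads (8.75 and 4.38 TPM), a change of -0.98 (adjusted p = 0.0475, exact binomial test). Both calls were lost when the libraries were scaled by TMM factors or by median ratios, and that of miR-297a-3p also when they were scaled by miRNA reads.

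The arms of the hairpins differed in the size of the decrease when reads were summed. The 33 5p members had 16333 and 2397 reads, a log2 ratio of sums of -1.05 (-1.11 to -0.99). The 34 3p members had 7607 and 666 reads, a ratio of -1.79 (-1.91 to -1.68). For miRNAs that are not members, the same ratios of sums were -0.07 for 5p and -0.13 for 3p. The share of member reads on 5p arms rose from 66.0% (95% Wilson interval 65.4 to 66.6%) for control SPCs to 77.0% (75.5 to 78.5%) in the knockdown. The median log2 fold change was -1.07 over the 28 5p members above 1.5 TPM and -1.55 over the 22 3p members, against -0.26 and -0.29 in the other miRNAs.

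This difference between arms was not the same in all families. In miR-466 the median was -0.85 on 5p and -1.85 on 3p, and the ratios of sums were -1.23 (-1.46 to -1.01) and -1.90 (-2.07 to -1.74). In miR-669 the ratios of sums were -1.02 (-1.12 to -0.91) on 5p and -1.89 (-2.09 to -1.69) on 3p, whereas the medians ran the other way, at -1.14 and -0.67, and miR-669a-3p and miR-669o-3p held most of the 3p reads. In miR-467 the ratios were -1.05 (-1.13 to -0.97) and -1.25 (-1.57 to -0.94), and in miR-297 they were -0.84 (-1.32 to -0.38) and -1.09 (-1.73 to -0.50). The intervals of the 2 arms thus overlapped in miR-467 and miR-297 and not in miR-466 and miR-669.

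**Figure D3:**
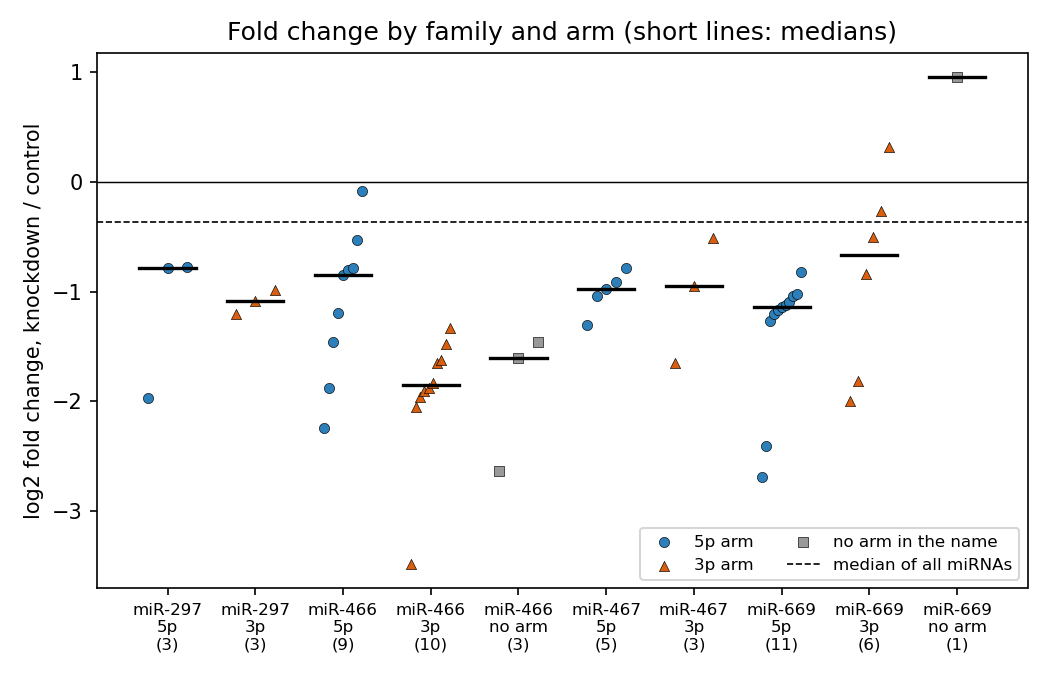
Log2 fold change of the 54 members above 1.5 TPM, by family and arm, with the number of members in brackets, short lines for medians and a dashed line for the median of all miRNAs at -0.37. The 10 miR-466 members on 3p lie at or below -1.33 (median -1.85), lower than most of the 9 on 5p (median -0.85).

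For single hairpins, the split between arms was compared by Fisher's exact test (two-sided, arm by library) wherever both arms were listed with the same single hairpin and had at least 20 reads together in each library. Of the 14 member hairpins that qualified, 1 had a higher share of 5p reads after knockdown and none a lower share, at an adjusted p below 0.05. The background over all 194 such hairpins was 12.9% higher and 13.4% lower, so the members' count did not exceed it. That hairpin was mir-467d, at 85.7% 5p reads (84.4 to 87.0%) in the control and 91.0% (87.8 to 93.4%) after Mov10 knockdown (adjusted p = 0.0148, Fisher's exact test). The median difference between the log2 fold changes of 5p and 3p was 0.59 in the 14, against 0.00 in all, with a range of -1.49 to 1.39.

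When arms were joined by name, whatever hairpins they were listed with, 21 member pairs qualified, of which 4 had a higher 5p share and none a lower one, against 14.1% and 13.1% of all 206 pairs. The 3 further pairs with a higher 5p share were all listed with several hairpins. The 5p share of miR-669a was 48.2% (46.8 to 49.7%) in the control and 64.4% (60.2 to 68.5%) after Mov10 knockdown (adjusted p = 3.58e-11, Fisher's exact test). That of miR-466b was 10.5% (9.0 to 12.1%) and 23.9% (17.5 to 31.8%), and that of miR-466c was 47.5% (44.3 to 50.7%) and 66.4% (57.5 to 74.2%). In contrast, miR-467a, which also has several hairpins, stayed close, at 91.1% (90.1 to 92.0%) and 90.6% (87.7 to 92.9%). How reads that match several hairpins were assigned is not given in the sources used here, so the split among near-identical members is uncertain. The reads of mir-466i, 172 for control and 14 for knockdown SPCs on each arm, were the same for both arms, which was the case for 1 of 248 hairpins with both arms and at least 20 reads in the control.

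**Figure D4:**
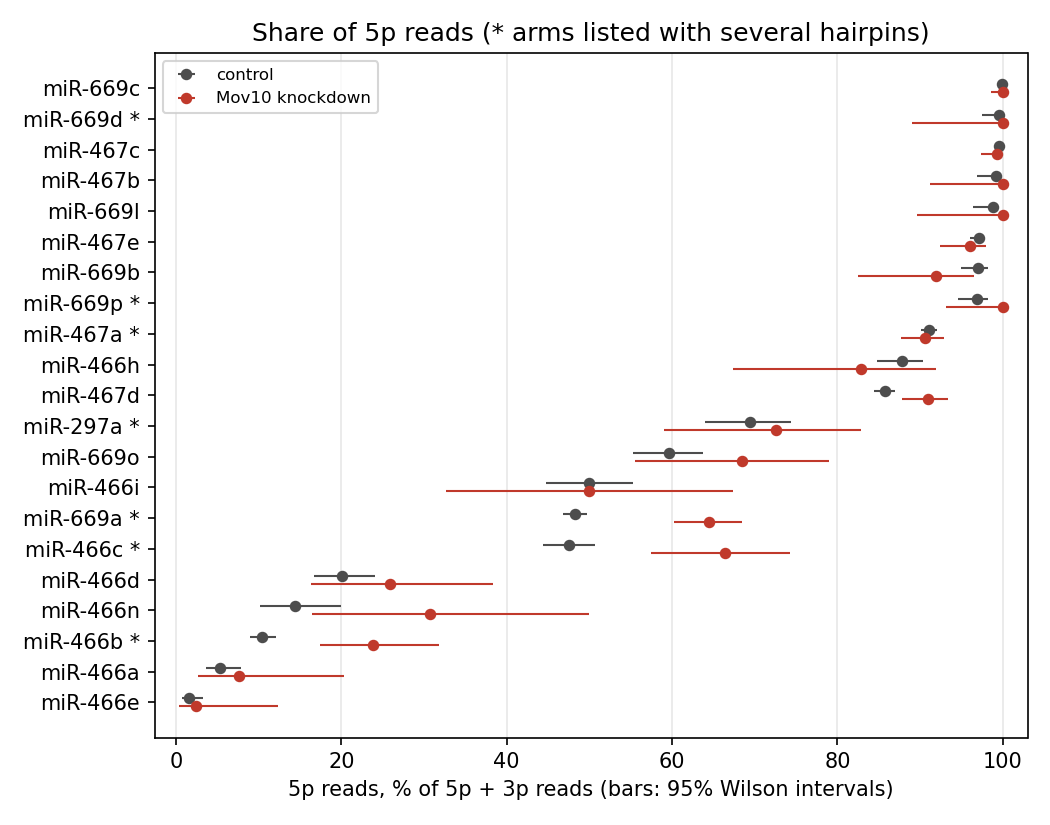
Share of 5p reads among 5p and 3p reads for 21 member pairs in the control (grey) and the Mov10 knockdown (red) library, with 95% Wilson intervals, where asterisks mark arms listed with several hairpins. The intervals are apart for miR-466b, miR-466c, miR-669a and miR-467d, with the knockdown share the higher one in each.

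All 76 hairpins named for the members were placed on GRCm38 with RefSeq names, and their surroundings were read from GENCODE vM21. Of these, 70 lay within Sfmbt2 (chr2:10370510-10595253, plus strand) and on its strand. They spanned 51617 bp, from position 10466663 to position 10518279 of chromosome 2, and all lay in intron 10 of a transcript of Sfmbt2 with 23 exons. None overlapped an exon of Sfmbt2, and none of the other measured miRNAs was placed in the gene. Neighbouring hairpins started a median of 296 bp apart. The remaining 6 hairpins, mir-297a-1 on chromosome 7, mir-466f-4 and mir-466i on chromosome 13, mir-466j on chromosome 10, and mir-466k and mir-669n on chromosome 3, had no annotated host gene on their strand.

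The decrease was found in and outside Sfmbt2. The 66 members whose hairpins all lie in Sfmbt2 had 24095 and 3037 reads, a log2 ratio of sums of -1.27 (-1.32 to -1.21), and 42 of the 49 above 1.5 TPM were reduced (median -1.14). The 6 members whose hairpins all lie elsewhere had 450 and 38 reads, a ratio of -1.85 (-2.36 to -1.37), and the 4 above 1.5 TPM were all reduced (median -1.74). Of these 4, miR-466k (2.76 and 0.939 TPM) passed 1.5 TPM through the control library alone, so it had to be lower in the knockdown. The arms of mir-466i, also among the 4, had identical reads. With that hairpin counted once (a choice made after seeing the data) 278 and 24 reads gave a ratio of -1.81 (-2.48 to -1.21). miR-297a-5p is listed with hairpins in both places. Whether reads from one place were counted in the other was not tested.

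The members listed with 1 hairpin and with several gave similar values when the arms were pooled. The 56 single-hairpin members had a log2 ratio of sums of -1.22 (-1.30 to -1.15), and 34 of the 40 above 1.5 TPM were reduced (median -1.21). The 17 members with several hairpins had a ratio of -1.33 (-1.41 to -1.25), and 13 of the 14 above 1.5 TPM were reduced (median -1.07). On 5p arms the ratios were close, at -1.08 with 1 hairpin and -1.01 with several. On 3p arms they were -1.58 (-1.77 to -1.40) and -1.93 (-2.08 to -1.78), with intervals that narrowly did not overlap. Among the other miRNAs with several hairpins, 11 of 40 were reduced, the median was -0.01 and the ratio of sums -0.16, against a ratio of -0.06 for all miRNAs that are not members.

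Along Sfmbt2, the single-hairpin members above 1.5 TPM fell into 2 stretches, separated by 27 hairpins that start between them. The 13 members in the first, from 0.57 to 14.6 kb after the first hairpin, had a median log2 fold change of -0.84, and 9 were reduced. The 23 in the second, from 39.1 to 51.5 kb, had a median of -1.33, and 21 were reduced. The medians of the 5p arms were close, at -1.14 and -1.08, and those of the 3p arms were -0.50 over 5 members and -1.55 over 10. These stretches were defined after the values were seen and hold different families, with most of the miR-669 members in the first and the miR-466 3p members mainly in the second.

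**Figure D5:**
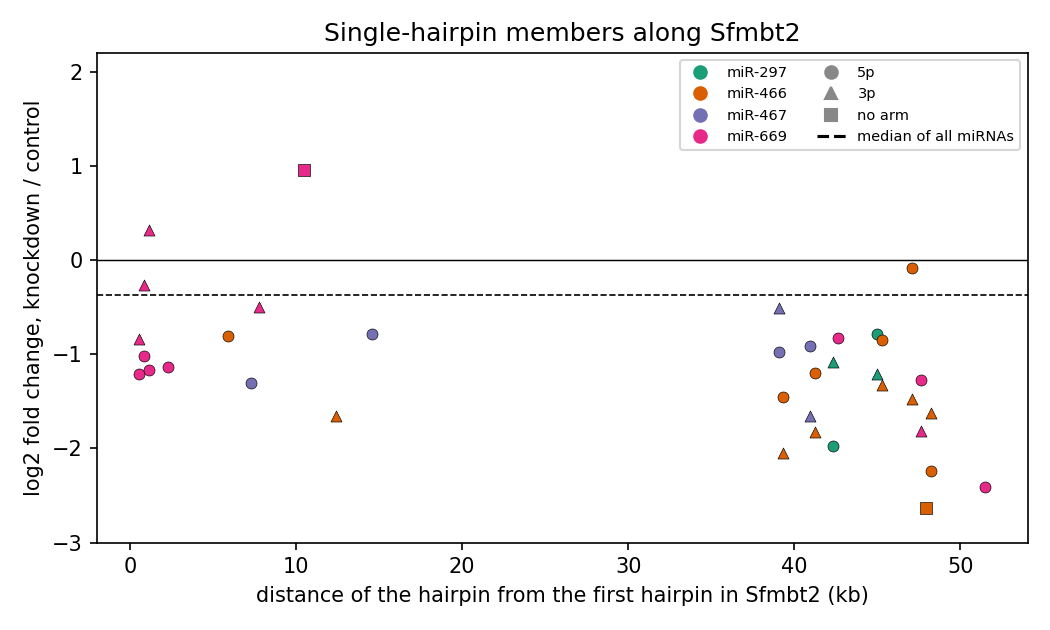
Log2 fold change of the single-hairpin members above 1.5 TPM plotted against the distance of their hairpin from the first hairpin in Sfmbt2 (kb), coloured by family, with circles for 5p, triangles for 3p and squares for no arm, and a dashed line for the median of all miRNAs. Of the 13 members up to 14.6 kb, 9 were reduced over 1.5-fold, and of the 23 members from 39.1 kb on, 21 were.

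A decrease of this size was not particular to these families. The miRNAs of the imprinted Dlk1-Dio3 region, another large cluster of tandem hairpins, counted 70, of which 29 of the 38 above 1.5 TPM were reduced, with a median log2 fold change of -1.30 and a log2 ratio of sums of -1.12 (-1.18 to -1.06). The miRNAs of the miR-290 to miR-295 cluster, which is typical of pluripotent cells, counted 17, of which 10 of 16 were reduced, with a median of -0.74 and a ratio of sums of -0.70 (-0.74 to -0.65). The interval of the members' sum (-1.33 to -1.22) lay below both, by little in the case of Dlk1-Dio3, whose median was the lower one.

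Marker miRNAs of germ cells, feeder fibroblasts and blood cells also differed between the libraries. The summed level of 12 germ and stem cell miRNAs, among them 6 of the miR-290 to miR-295 cluster, was 156206 TPM for control and 115200 TPM for knockdown SPCs, a log2 ratio of -0.44, with 10 of 12 below 0 and a median log2 fold change of -0.55. In that sum miR-182-5p alone held 90.9% of the control level, and the other 11 gave a log2 ratio of -0.26. The summed level of 6 fibroblast miRNAs was 77397 and 136208 TPM, a log2 ratio of 0.82, with 2 of 6 below 0 and a median log2 fold change of 0.14. Most of that rise lay in miR-21a-5p (51967 and 107056 TPM), and without it the log2 ratio was 0.20. The paper also counts miR21a among the miRNAs that determine SPC fate. By RT-qPCR it reports lower mature miR21a after Mov10 knockdown, the reverse of the direction here. It reports the same for miR20a and miR106a. In the libraries, miR-106a-5p (3.61 and 0.939 TPM) was lower too, and miR-20a-5p (285 and 214 TPM) was lower by less than 1.5-fold. The RT-qPCR was scaled to a reference RNA and TPM to a library's own total, so the directions for miR21a cannot be compared directly. The summed level of 4 blood cell miRNAs was 17.6 and 5.95 TPM, with 4 of 4 below 0. In that sum miR-142a-3p held 65.4% of the control level, and the other 3 gave a log2 ratio of -0.47. None of these 22 markers was at 0 in either library. The part that a different share of feeder RNA had in the members' decrease was not tested, and fewer cells of a type and less RNA per cell cannot be told apart.

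Scaling changed the size of the decrease more than its place relative to other miRNAs. The median log2 fold change of the members was -1.12 when libraries were scaled by their miRNA reads, -0.97 with TMM factors and -0.94 with median ratios, and the median of all miRNAs was then -0.30, -0.13 and -0.12. The median of the members minus that of all miRNAs stayed between -0.84 and -0.82 in the deposited scale and in these 3 scales. Without any depth correction the medians were -2.82 and -2.07.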

How the data were processed

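The small RNA libraries of control and Mov10 knockdown SPCs, 1 each, were analysed. The authors size-selected small RNAs, filtered rRNA reads, trimmed adaptors, mapped the reads to miRBase (version 21) without mismatch with CLC Genomics Workbench, and deposited the read counts of 1096 mature miRNAs, which are raw and whole. They also deposited a column called TPM, which is in RPM, since the counts divided by it gave 1 library total throughout, namely 10518277 control reads and 3194363 knockdown reads. What these totals contain, and how reads shared by hairpins were counted, is not given in the sources used here. The methods mention triplicate samples, but the labels give 1 library per group. The other libraries of the study, and with them the Mov10 mRNA, were not analysed here.

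Fold calls required over 1.5 TPM in at least 1 library and over 1.5-fold on log2(TPM + 0.1). The reads of each miRNA were tested between libraries with an exact binomial test (two-sided, conditional on the totals), and arms by a two-sided Fisher's exact test, each with Benjamini-Hochberg adjustment over all miRNAs or hairpins tested (threshold 0.05). Ratio intervals are exact (Clopper-Pearson) and shares have Wilson intervals, all at 95%. With 1 library per group no test between conditions was possible. The members and lists were chosen with earlier results of these data known. Named were the 20 members with most reads, the top member of each family and both arms of their hairpins, and others are named where marked. Alternatives were 4 scalings (TMM from edgeR 4.0.16 in R 4.3.3), minima, a 2-fold threshold, a pseudocount of 1 TPM and subsets of members. Hairpins were placed by RefSeq names, and scripts, tested on simulated data, used Python 3.11.15, pandas 2.3.3 and SciPy 1.17.1.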

Additional observations from a re-analysis of the deposited data

How the results depend on the processing

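The count of reduced members and the medians kept their direction under all scalings, minima and pseudocounts tried. The log2 ratio of summed member TPM was -1.27 as deposited, -1.21 when scaled by miRNA reads, -1.05 with TMM factors, -1.02 with median ratios and -2.99 without depth correction. Without depth correction, where the 2 libraries are divided by the control total, the lower depth of the knockdown library enters every value, and 59 were lower by the exact binomial test, none was raised, and the median log2 fold change was -2.82 in the members, -2.76 on 5p, -3.18 on 3p, -2.65 in miR-297, -3.18 in miR-466, -2.67 in miR-467, -2.80 in miR-669, -2.88 with a single hairpin, -2.78 with several, -2.79 in Sfmbt2 and -3.35 elsewhere, and miR-669b-3p turned from 0.32 to -1.22. With a minimum of 10 TPM, 30 members were reduced, since fewer were counted. The 1 raised member, miR-669g, became 0 with minima of 10 TPM or of 1.5 TPM in both libraries, a 2-fold threshold or a pseudocount of 1 TPM. Joining arms by name gave 4 pairs with a higher 5p share in place of 1 single hairpin, and the 3 others were listed with several hairpins. Of the alternatives chosen after seeing the data, setting members without knockdown reads to 3 reads left the median at -1.18, and leaving out mir-466i gave 45 reduced members, 1 raised and a median of -1.15. No paired analysis was possible because there was 1 library on each side. The depth of the knockdown library limits the scarce members, and variation between cultures was not measured.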
